A study of Mus musculus with 6 samples.

Results

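The proteasome is the cell's main protease for ubiquitin-tagged proteins, and 44 of the 14918 genes in the deposited expression table of mouse liver macrophages carry proteasome subunit names. They were taken as the protein-coding genes whose symbol starts with Psma, Psmb, Psmc, Psmd or Psme followed by digits. Psmc3ip, a meiotic recombination factor, matched by name only and was set apart, which left 43 proteasome genes. Of these, Psmb8, Psmb9, Psmb10, Psme1 and Psme2 are the 5 that interferon gamma is known to induce, and the other 38 are described beside them. Psmb11, the thymic catalytic subunit, was not analysed here. All 44 genes passed the filter on low counts.

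The study compared liver macrophages of C57BL/6 mice fed a high fat diet with those of C57BL/6 mice fed a normal diet, each for 18 weeks from an age of about 6 weeks. Each diet had 3 libraries of poly(A)-selected RNA, and each library was taken as 1 mouse because the design counts 3 per diet. The comparison asks how the diet changes the transcriptome of these macrophages. The sources used here do not give how the cells were isolated, whether they were sorted, the sex of the mice or the make-up of the diets.

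Total counts lay between 17470439 and 23610956 per library. The label was checked against 8 markers of Kupffer cells, which are the macrophages that reside in the liver, and other macrophages, whose summed expression in CPM (read counts scaled to library size, the field's usual unit) was 21876 to 26900 CPM on the high fat diet and 20314 to 31694 CPM on the normal diet. RNA of other cells was also present. The 12 hepatocyte markers summed to 4817 to 8180 CPM on the high fat diet and 557 to 2656 CPM on the normal diet, so the groups did not overlap. The 8 conventional dendritic cell markers summed to 196, 225 and 206 CPM on the high fat diet, against 419, 218 and 419.7 CPM on the normal diet. The 7 of 10 T and NK cell markers in the table summed to 42.4 to 76.1 CPM on the high fat diet and 45.4 to 185 CPM on the normal diet. Sums for the other lists, on the high fat and then the normal diet, were 206 to 271 and 179 to 263 CPM for 6 B cell markers, 273 to 307 and 308 to 367 CPM for 4 plasmacytoid dendritic cell markers, and 1584 to 1872 and 2076 to 3101 CPM for 6 sinusoidal endothelial markers. The 5 of 6 neutrophil markers in the table summed to 74.1 to 98.2 CPM on the high fat diet and 8.53 to 38.7 CPM on the normal diet, and 5 monocyte markers to 443 to 659 CPM on the high fat diet and 208 to 428 CPM on the normal diet. No listed marker in the table was at 0 counts in any library. In such bulk RNA, fewer cells of a type and less RNA per cell cannot be told apart.

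The 20S core of the proteasome is a barrel of alpha and beta rings with its protease sites inside, and the 19S particle on its ends recognises, unfolds and feeds in ubiquitin-tagged proteins. Interferon gamma replaces the 3 catalytic beta subunits: Psmb8 (LMP7) takes the place of Psmb5, Psmb9 (LMP2) that of Psmb6, and Psmb10 (MECL-1) that of Psmb7. The resulting immunoproteasome is known for cutting peptides that fit MHC class I molecules, and macrophages and dendritic cells carry it also at rest. Psme1 and Psme2 encode the alpha and beta chains of PA28, an activator ring that opens the 20S core without ubiquitin.

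The inducible genes lie in 3 places of the mm10 genome. Psmb9 (ENSMUSG00000096727, chr17:34181988-34187764, minus strand) and Psmb8 (ENSMUSG00000024338, chr17:34197721-34201454, plus strand) lie 9956 bases apart in the MHC, where they alternate with the peptide transporter genes Tap1 and Tap2. Psme1 (ENSMUSG00000022216, chr14:55578123-55581529, plus strand) and Psme2 (ENSMUSG00000079197, chr14:55587441-55591113, minus strand) lie 5911 bases apart. Psmb10 (ENSMUSG00000031897, chr8:105935728-105938392, minus strand) stands alone. The Psmb9 and Tap1 models overlap by 212 bases on opposite strands, and Psmb8 shares 14.7% of its exon bases with the antisense gene Gm20496. No strand-keeping step is named in the labels' protocol, so reads of such overlapping genes cannot be told apart.

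Promoter windows of 250 bases before to 50 bases after the start site were taken from RefSeq (GRCm38.p6) for 36 of the 43 genes and searched on both strands for 4 short motifs. These were the interferon gamma activated site (GAS) TTCNNNGAA, the core of the interferon-stimulated response element (ISRE) (GAAA, any 2 bases, then GAAA) bound by interferon regulatory factors, the antioxidant response element TGACNNNGC bound by NRF1 and NRF2, and the CCAAT box. The windows of 4 genes are shown, each as an example of a different motif. Each is printed 5′ to 3′ on the gene's strand, and the capitals mark the match. Psmb8 (chr17:34197945-34198244, plus strand) holds a GAS match that begins 97 bases upstream of the start. Psme1 (chr14:55578244-55578543, plus strand) holds an ISRE match, read on the opposite strand, whose first base is 10 bases into the transcript. Psmb9 (chr17:34187281-34187580, minus strand) holds a CCAAT match on the opposite strand, 8 bases upstream. Psmb5 (chr14:54617946-54618245, minus strand), the constitutive counterpart of Psmb8, holds an antioxidant response element match 47 bases upstream.
Psmb8: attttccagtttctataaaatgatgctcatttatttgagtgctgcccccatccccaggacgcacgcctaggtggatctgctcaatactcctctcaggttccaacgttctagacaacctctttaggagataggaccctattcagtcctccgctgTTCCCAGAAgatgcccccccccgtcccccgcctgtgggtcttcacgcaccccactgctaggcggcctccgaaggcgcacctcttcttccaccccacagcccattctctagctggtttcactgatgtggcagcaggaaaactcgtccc
Psme1: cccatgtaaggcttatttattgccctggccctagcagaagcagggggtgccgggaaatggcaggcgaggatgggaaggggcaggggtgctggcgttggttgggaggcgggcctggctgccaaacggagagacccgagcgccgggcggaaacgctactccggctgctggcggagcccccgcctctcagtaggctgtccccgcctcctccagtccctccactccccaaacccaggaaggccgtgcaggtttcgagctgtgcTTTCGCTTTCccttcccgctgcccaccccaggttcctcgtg
Psmb9: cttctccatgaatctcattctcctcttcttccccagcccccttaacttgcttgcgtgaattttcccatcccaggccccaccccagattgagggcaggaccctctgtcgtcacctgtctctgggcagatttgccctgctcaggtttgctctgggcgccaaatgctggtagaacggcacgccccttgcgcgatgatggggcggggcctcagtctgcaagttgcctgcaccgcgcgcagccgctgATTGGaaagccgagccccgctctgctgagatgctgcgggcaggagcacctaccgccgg
Psmb5: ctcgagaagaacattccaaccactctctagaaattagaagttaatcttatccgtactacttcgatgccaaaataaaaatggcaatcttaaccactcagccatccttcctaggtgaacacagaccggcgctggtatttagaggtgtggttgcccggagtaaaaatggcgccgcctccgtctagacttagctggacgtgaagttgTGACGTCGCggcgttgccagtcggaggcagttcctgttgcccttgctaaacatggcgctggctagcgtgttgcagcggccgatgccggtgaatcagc

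A match describes the letters of a window and no more. GAS was found in 1 of 5 inducible promoters (Psmb8), in 1 of 31 others (Psmd2) and in 8.298% of all 32851 RefSeq promoters. ISRE was found in 1 of 5 inducible promoters (Psme1), in 3 of 31 others (Psmb3, Psmd4 and Psmd9) and in 3.443% of all. The antioxidant response element was in 0 of 5 inducible promoters, in 6 of 31 others (Psmb5, Psmb6, Psmc6, Psmd12, Psmd9 and Psme4) and in 12.39% of all. CCAAT was in 1 of 5 inducible promoters, 12 of 31 others and 37.41% of all. The RefSeq start used for Psmb8 lies 474 bases downstream of the deposited gene start, that for Psmb9 434 bases and that for Psme1 371 bases, so the windows cover a single start site of each gene. The Psmb9 window shares 275 bases with the window of Tap1, whose start site lies 226 bases away on the other strand.

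On the high fat diet, all 5 interferon-inducible proteasome genes stood lower than on the normal diet, by 1.27-fold (Psmb10) to 1.69-fold (Psmb9). The 38 other proteasome genes had a median log2 fold change of 0.04. Their range of -0.28 to 0.19 came near to Psmb10 at -0.35. For each of the 5, the 3 high fat libraries lay below the 3 normal diet libraries, as they did for 10.8% of all genes tested. None of the 5 passed an adjusted p of 0.05 in edgeR's quasi-likelihood test over all 14361 genes tested, where 0.634% of genes passed 0.188% as lower and 0.446% as higher on the high fat diet. The direction was therefore the same in all 5 genes, but the size did not exceed the spread between mice by the study-wide threshold in that test.

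Psmb9, which supplies the LMP2 subunit, had 81.9, 86.4 and 74.7 CPM on the high fat diet, against 143.5, 104 and 163 CPM on the normal diet. Its log2 fold change was -0.76 ± 0.16 (SE; edgeR adjusted p = 0.0908). The normal diet libraries were spread more widely than the high fat ones, and normal diet replicate 2 lay nearest to them.

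Psmb8, the LMP7 subunit with the chymotrypsin-like site, had 42.6, 42.2 and 46.4 CPM on the high fat diet, against 70.9, 52 and 77.8 CPM on the normal diet. The log2 fold change was -0.61 ± 0.15 (edgeR adjusted p = 0.109), or 1.53-fold lower. Again normal diet replicate 2 was the lowest of its group and still above every high fat library.

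Psmb10, the MECL-1 subunit with the trypsin-like site, had 90.6, 95.2 and 95.8 CPM on the high fat diet, against 132, 100.01 and 127 CPM on the normal diet. Its log2 fold change of -0.35 ± 0.11 (edgeR adjusted p = 0.175) was nearest to 0 among the 5. The gap between the highest high fat library and normal diet replicate 2 was small.

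Psme1, the alpha chain of PA28, had 152, 153 and 158 CPM on the high fat diet, against 224, 174 and 224 CPM on the normal diet, a log2 fold change of -0.43 ± 0.11 (edgeR adjusted p = 0.124). Psme2, the beta chain, had 96.0, 106 and 103 CPM on the high fat diet, against 159.8, 113 and 167 CPM on the normal diet, a log2 fold change of -0.53 ± 0.15 (edgeR adjusted p = 0.141). Both chains of the ring thus stood lower by like amounts, 1.34-fold and 1.44-fold.

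**Figure D1:**
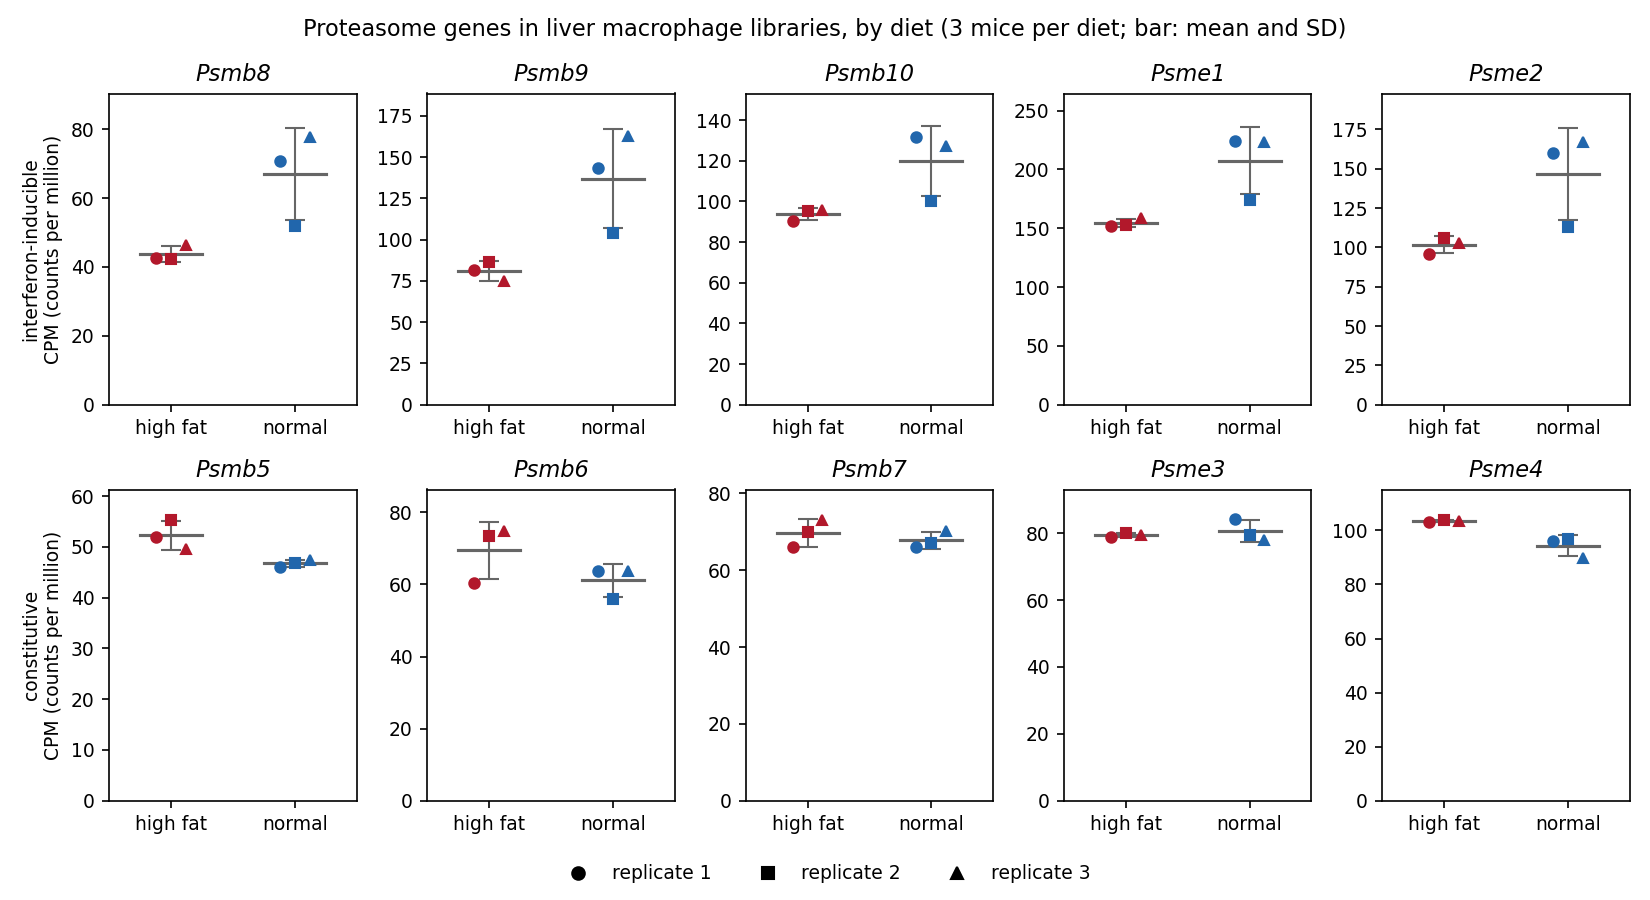
CPM of each library (points, shaped by replicate) with the group mean and SD, high fat diet left and normal diet right, each axis starting at 0. The upper row holds the 5 interferon-inducible genes, in which all high fat points lie below all normal diet points, and the lower row holds Psmb5, Psmb6, Psmb7, Psme3 and Psme4.

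Summed over the 5 genes, the libraries held 463, 483 and 478 CPM on the high fat diet, against 730.2, 544 and 759 CPM on the normal diet. The other 38 genes summed to 2545, 2725 and 2709 CPM on the high fat diet, against 2723, 2611 and 2629 CPM on the normal diet, and these groups overlapped. The 5 inducible genes thus made up 15.4%, 15.1% and 15.0% of the CPM of all 43 on the high fat diet, against 21.1%, 17.2% and 22.4% on the normal diet.

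By counts, 5 of 5 inducible genes reached an unadjusted p under 0.05 in edgeR, all lower on the high fat diet, a level that 8.4% of all genes tested reached as lower. All 5 also had groups that do not overlap with the high fat diet lower, as did 10.8% of all genes tested. Their median log2 fold change was -0.53 (range -0.76 to -0.35), against a median of 0.04 (range -0.28 to 0.19) for the other 38 and of 0.00 for all genes tested. No p-value is given for the 5 as a list.

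Whether the 5 genes were called depended on the tool and on a single library. DESeq2 called 4 of them lower, Psmb9 at an adjusted p of 0.00159, Psmb8 at 0.0107, Psme1 at 0.0213 and Psme2 at 0.0306, but not Psmb10 (0.0969). DESeq2 called 8.34% of all genes tested, 3.24% as lower. The same 4 genes passed in the authors' deposited table, where 7.98% of its genes passed, 3.02% as lower, with adjusted p of 0.00195 for Psmb9 and 0.0124 for Psmb8. Limma voom called 0 of 5, with 0.564% of all genes called. Without normal diet replicate 2, edgeR called all 5 lower (adjusted p between 0.00506 and 0.0129), with log2 fold changes between -0.93 and -0.48, while 9.44% of all genes tested were called, 5.9% as lower. Leaving out any other library gave 0 of 5, in fits that called 0 to 22 genes in the whole table.

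That library was the lowest of the 3 normal diet libraries for 5 of 5 inducible genes, for 16 of the 38 others (42.1%) and for 39.9% of all genes tested. Markers of conventional dendritic cells, which also carry the immunoproteasome, showed a like order, with 218 CPM in normal diet replicate 2 beside 419 and 419.7 CPM in replicates 1 and 3. The order was not particular to them. Normal diet replicate 2 was also lowest for summed T and NK cell, B cell, neutrophil, monocyte and sinusoidal endothelial markers. It was highest for the summed macrophage and hepatocyte markers, and between the others for plasmacytoid dendritic cell markers. All 8 conventional dendritic cell markers had negative log2 fold changes (median -0.80). Of them, 1, Itgae (CD103), passed in edgeR (adjusted p = 0.0231), where 0.188% of all genes tested passed as lower. Itgae, chosen after its values were seen, had 3.86, 4.87 and 3.79 CPM on the high fat diet, against 19.6, 15.9 and 19.1 CPM on the normal diet. In edgeR, 3 of 5 neutrophil markers and 1 of 5 monocyte markers also passed, all higher on the high fat diet (0.446% of all genes tested). The part of any of these cell types in the result was not tested. Hepatocyte RNA also moved with the diet. The hepatocyte score (the mean log2 CPM of its 12 markers) was 7.19 to 8.03 on the high fat diet and 4.34 to 6.46 on the normal diet. With this score as a covariate, the log2 fold changes of the 5 genes lay between -0.69 and -0.17. Their edgeR adjusted p lay between 0.624 and 0.846, in a fit that called 0 genes in the whole table. Because the score separates the diets completely, this fit cannot tell hepatocyte RNA from diet.

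**Figure D2:**
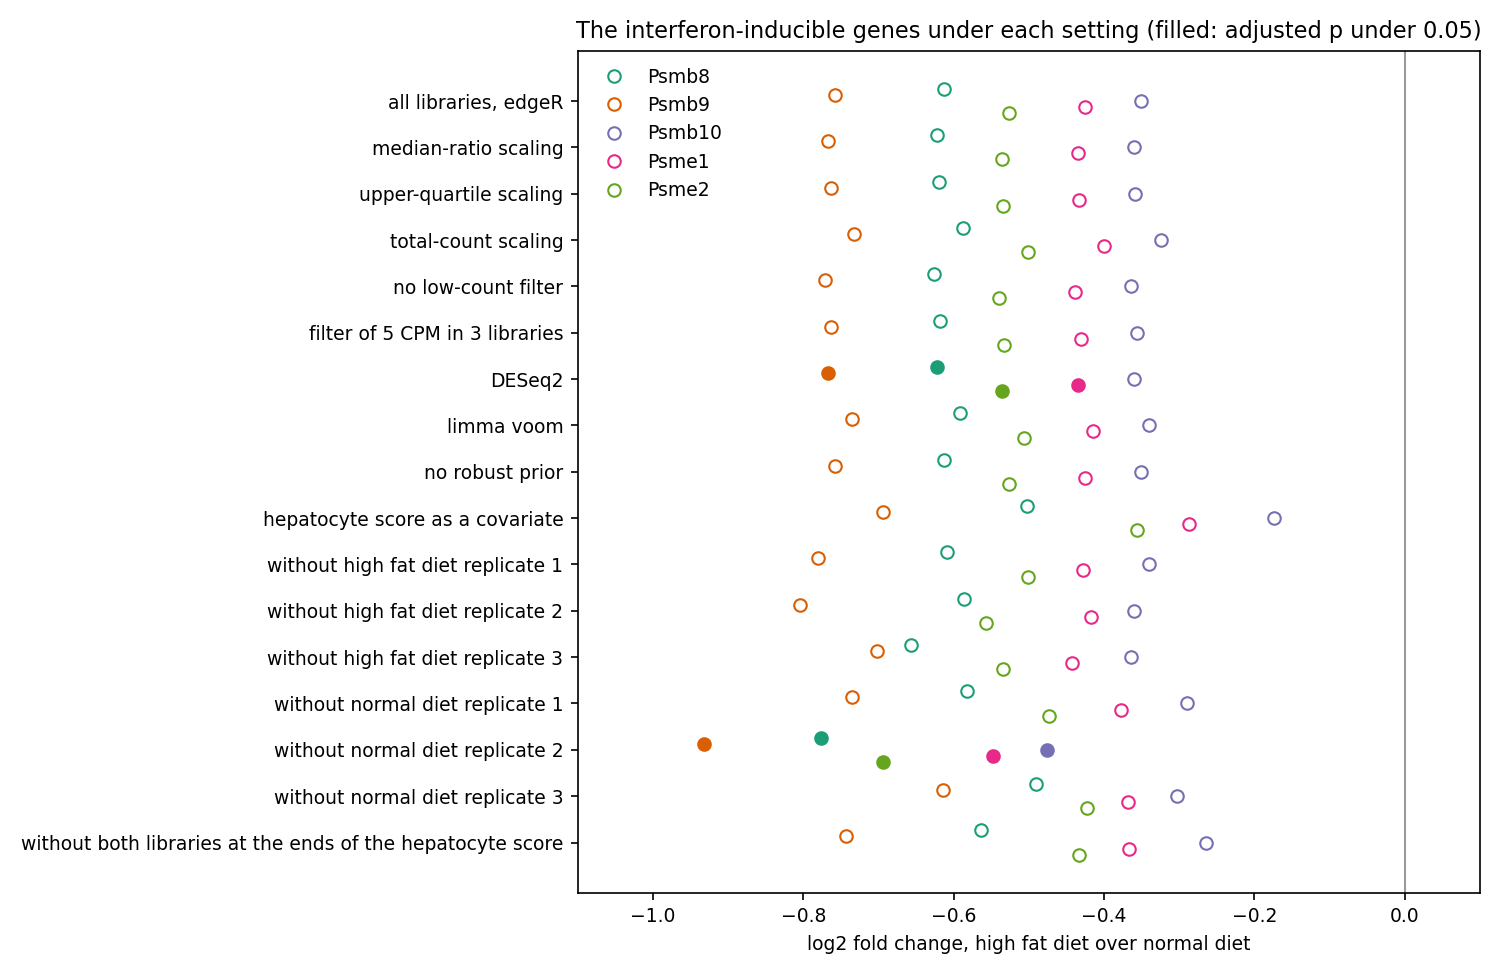
Log2 fold change, high fat over normal diet, of the 5 interferon-inducible genes under each analysis setting, with filled points for an adjusted p under 0.05. Points lie left of 0 in every setting shown, and filled points appear in the DESeq2 row (4 genes) and the row without normal diet replicate 2 (5 genes).

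Since each inducible catalytic subunit takes the place of a constitutive partner, the pairs were compared within libraries, where the scaling between libraries cancels. In all 4 pairs the inducible gene held a smaller share on the high fat diet. Each ratio uses the same counts of the inducible gene as above, so it is no separate evidence. Psmb7 and Psme3 had log2 fold changes of 0.04 and -0.02, so their pairs largely restate Psmb10 and Psme1. Shares were taken from the deposited FPKM, which allow for gene length, and the test used the log2 ratio of counts. With 3 libraries against 3, the exact two-sided permutation test cannot go below p = 0.1.

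Psmb8 made up 27.2%, 25.9% and 29.9% of the FPKM of Psmb8 and Psmb5 together on the high fat diet, against 41.3%, 33.6% and 42.8% on the normal diet. The ratio of Psmb8 to Psmb5 was 1.68-fold lower on the high fat diet, a difference of -0.75 in log2 ratio (exact permutation p = 0.1, adjusted over 4 pairs 0.1). The groups did not overlap.

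Psmb9 made up 31.2%, 28.3% and 25.1% of its pair with Psmb6 on the high fat diet, against 43%, 38.5% and 46.1% on the normal diet. The log2 ratio differed by -0.92, or 1.89-fold (exact permutation p = 0.1, adjusted 0.1). Of the 4 pairs this ratio differed most, with Psmb9 at a negative and Psmb6 at a positive log2 fold change.

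Psmb10 made up 55.6%, 55.5% and 54.5% of its pair with Psmb7 on the high fat diet, against 64.6%, 57.7% and 62.4% on the normal diet, so by FPKM it exceeded its partner in every library. The log2 ratio differed by -0.38 (exact permutation p = 0.1, adjusted 0.1). Psme1, set beside Psme3 (the gamma chain that forms a separate nuclear PA28 ring), made up 72.1%, 71.9% and 72.8% on the high fat diet, against 78.1%, 74.6% and 79.4% on the normal diet, and the log2 ratio differed by -0.40 (exact permutation p = 0.1, adjusted 0.1). The p of 0.1 is the smallest this design allows, so the complete separation in each pair cannot be taken further.

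**Figure D3:**
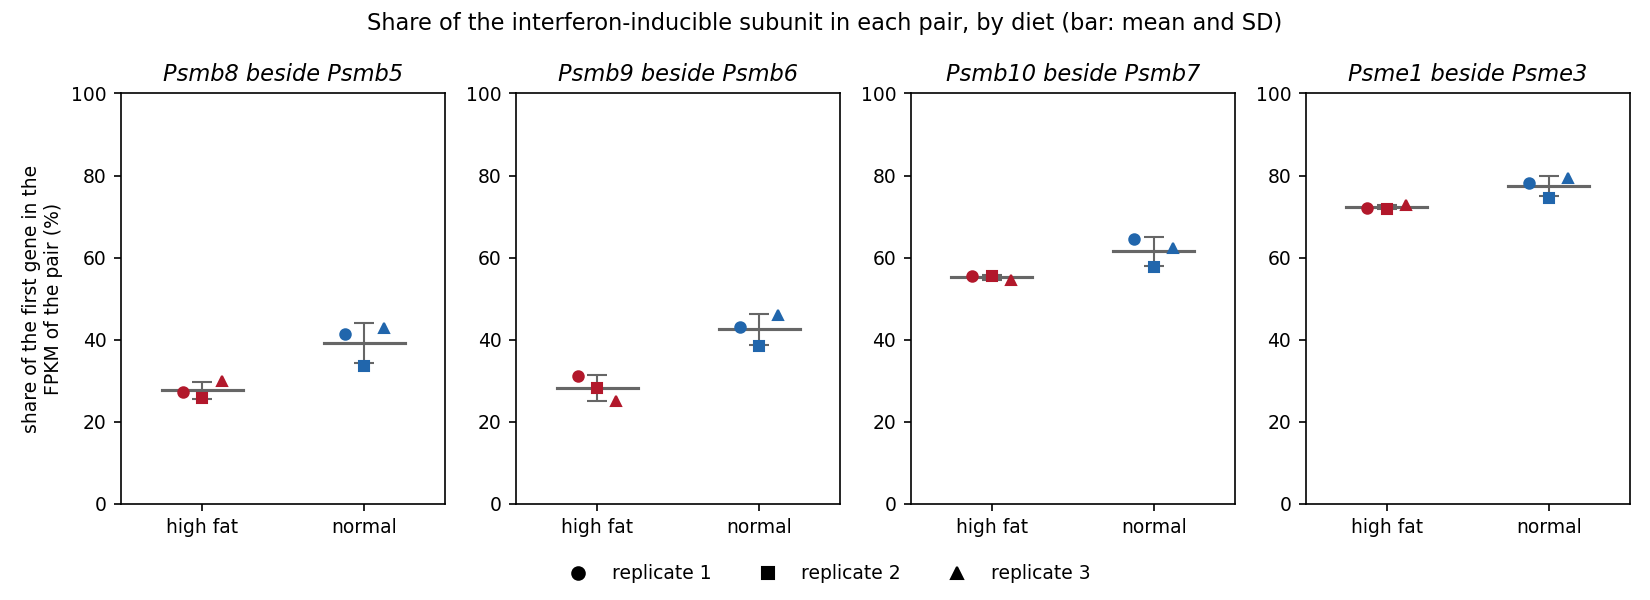
Share of the first gene in the summed FPKM of each pair, in percent, per library (points, shaped by replicate) with the group mean and SD, high fat diet left and normal diet right. High fat shares averaged 27.7%, 28.2%, 55.2% and 72.3% from the left panel to the right, against 39.2%, 42.5%, 61.5% and 77.4% on the normal diet.

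Per length, the inducible genes ranked between 1 and 31 of the 44 genes by mean FPKM over all libraries. Psme2 had the highest mean FPKM of all 44 genes, with 107 ± 5.57 FPKM on the high fat diet and 151 ± 30.3 FPKM on the normal diet (SD, n = 3 each). Psme1 ranked 3 of 44 (78.4 ± 1.59 FPKM on the high fat diet, 103 ± 14.2 FPKM on the normal diet) and Psmb10 ranked 6 (74.5 ± 2.27 FPKM on the high fat diet, 93.3 ± 13.1 FPKM on the normal diet). Psmb9 ranked 23 (28.3 ± 2.13 FPKM on the high fat diet, 47.0 ± 10.5 FPKM on the normal diet) and Psmb8 ranked 31 (23.1 ± 1.17 FPKM on the high fat diet, 34.8 ± 7.07 FPKM on the normal diet). In each of the 5 genes the SD was larger on the normal diet. The levels of neighbours in this order often differed by less than their SD, so the ranks are approximate.

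None of the 38 other proteasome genes passed in edgeR, DESeq2 or limma voom, which called 0.634%, 8.34% and 0.564% of all genes tested. In edgeR, 3 of them reached an unadjusted p under 0.05, 1 higher (Psmd1) and 2 lower (Psma6 and Psme2b), where 18.6% of all genes tested reached it. Of the 38, 14 had a negative log2 fold change. Groups did not overlap for 6, with Psma3, Psma6 and Psme2b lower on the high fat diet and Psmb5, Psmd1 and Psme4 higher, beside 25.3% of all genes tested (10.8% lower, 14.5% higher).

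The 3 constitutive catalytic subunits had log2 fold changes between 0.04 and 0.19. Psmb5, which carries the chymotrypsin-like site, had 52, 55.3 and 49.6 CPM on the high fat diet, against 46.1, 46.8 and 47.5 CPM on the normal diet (log2 fold change 0.16 ± 0.07, edgeR adjusted p = 0.288). Its groups did not overlap. Psmb6, with the caspase-like site, had 60.4, 73.3 and 74.8 CPM on the high fat diet, against 63.6, 55.8 and 63.9 CPM on the normal diet (0.19 ± 0.11, edgeR adjusted p = 0.401), and high fat replicate 1 lay within the normal diet range. Psmb7, with the trypsin-like site, had 66, 69.9 and 73.2 CPM on the high fat diet, against 66, 67.1 and 70.1 CPM on the normal diet (0.04 ± 0.07, edgeR adjusted p = 0.794). The groups of Psmb7 overlapped almost completely.

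The remaining 20S subunits build the rings. Of the 4 beta subunits without an active site (Psmb1, Psmb2, Psmb3 and Psmb4), 2 had a negative log2 fold change, and their range was -0.10 to 0.07. The 7 alpha ring genes Psma1 to Psma7, which form the gate of the barrel, ranged from -0.25 to 0.06 with 5 negative. Psma6 was at the low end, with 99.5, 111 and 107 CPM on the high fat diet, against 126, 139 and 114 CPM on the normal diet (-0.25 ± 0.09, edgeR adjusted p = 0.221). Its groups did not overlap, and normal diet replicate 2 was the highest library, unlike in the inducible genes. Per length, mean FPKM over all libraries ran from 39.3 (Psma3) to 111 (Psma6) in the alpha ring.

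The 17 genes of the 19S particle stayed within a narrow range of log2 fold changes, -0.10 to 0.17, with 4 negative. The 6 ATPases that unfold substrates (Psmc1 to Psmc6) ranged from -0.10 to 0.10. The 8 lid genes ranged from -0.07 to 0.09 and include Psmd14, the deubiquitinase that removes ubiquitin chains before degradation (0.03 ± 0.09). Among the 3 scaffold and receptor genes of the base, Psmd1 had 81.9, 82.3 and 85.7 CPM on the high fat diet, against 78.2, 73.7 and 69.8 CPM on the normal diet (0.17 ± 0.07, edgeR adjusted p = 0.254), with no overlap, and the ubiquitin receptor Psmd4 was at -0.02 ± 0.06. The chaperones Psmd5, Psmd9 and Psmd10, which help assemble the base and leave the finished particle, ranged from 0.07 to 0.12. These chaperones were low in level, with mean FPKM between 5.42 and 11.4, beside 21.3 to 85.7 for the 19S subunits.

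The 2 activators outside PA28 alpha and beta had log2 fold changes of -0.02 and 0.13. Psme3 had 78.7, 80.1 and 79.5 CPM on the high fat diet, against 84.3, 79.6 and 78.0 CPM on the normal diet (-0.02 ± 0.06, edgeR adjusted p = 0.895). Its sign turned to 0.01 with total-count scaling. Psme4, which encodes the nuclear activator PA200, had 103, 104 and 103.5 CPM on the high fat diet, against 96.3, 96.9 and 89.8 CPM on the normal diet (0.13 ± 0.06, edgeR adjusted p = 0.319). Its groups did not overlap, with the high fat diet higher.

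Psme2b is a retrocopy of Psme2, and reads may be split between the copies. It had 14.2, 14.5 and 15.6 CPM on the high fat diet, against 17.4, 19.7 and 16.4 CPM on the normal diet (-0.27 ± 0.11, edgeR adjusted p = 0.268). It stood lower like Psme2, but normal diet replicate 2 was its highest library and not its lowest. Psma8, the alpha subunit of the testis proteasome, was the lowest of the 43, with 3.53, 4.25 and 2.23 CPM on the high fat diet, against 3.18, 4.32 and 4.63 CPM on the normal diet (-0.28 ± 0.30, edgeR adjusted p = 0.658), and its groups overlapped. Psmc3ip, the recombination factor set apart, had 1.16 to 1.67 CPM over all libraries (0.08 ± 0.27, edgeR adjusted p = 0.898).

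**Figure D4:**
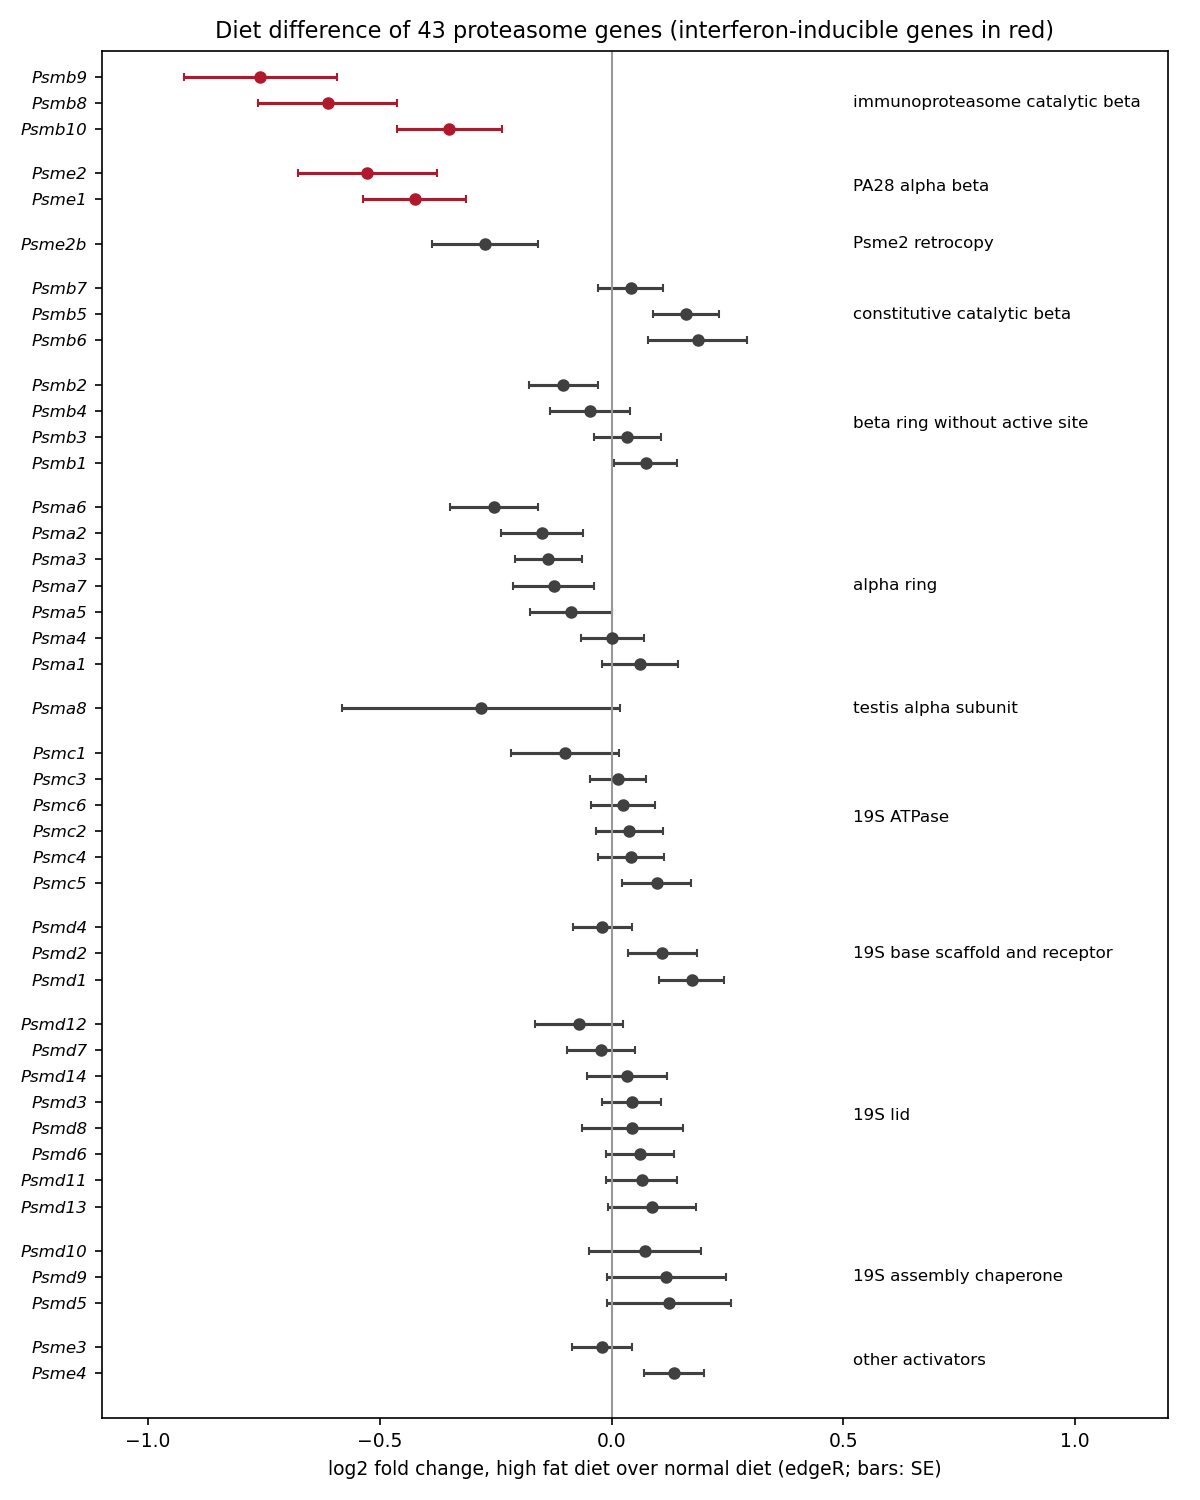
Log2 fold change, high fat over normal diet, with its SE (edgeR) for the 43 proteasome genes grouped by role. The 5 inducible genes (red) lie between -0.76 and -0.35, and the other 38 between -0.28 and 0.19.

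Linked pathways were described from 6 lists. None of their genes passed in edgeR, where 0.634% of all genes did, or in limma voom, where 0.564% did. The 2 lists of lowest median log2 fold change were interferon gamma signalling at -0.55 and MHC class I peptide loading at -0.17, beside 0.00 for all genes tested.

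Of 13 genes of interferon gamma signalling, 11 had a negative log2 fold change and 6 reached an unadjusted p under 0.05 as lower in edgeR (8.4% of all genes). DESeq2 called 6 lower (3.24% of all genes). Irf1, a transcription factor that drives immunoproteasome and class I genes, had 163, 126 and 167 CPM on the high fat diet, against 326, 259 and 382 CPM on the normal diet. Its log2 fold change was -1.08 ± 0.17 (edgeR adjusted p = 0.0540; DESeq2 adjusted p = 1.79e-06). The groups were far apart, and Irf1 passed in edgeR with upper-quartile scaling, with no low-count filter and without normal diet replicate 2. Those fits called 108, 104 and 1385 genes in the whole table. Irf8, a factor of macrophage and dendritic cell development, had 341, 368 and 380 CPM on the high fat diet, against 587, 415 and 589 CPM on the normal diet (-0.55 ± 0.15, edgeR adjusted p = 0.131). In Irf8, as in the inducible proteasome genes, normal diet replicate 2 was the lowest normal diet library.

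Nlrc5 and Ifng of this list were chosen after their values were seen. Nlrc5, the transactivator of MHC class I and immunoproteasome genes, had 115, 92.7 and 116 CPM on the high fat diet, against 222, 126 and 245.5 CPM on the normal diet (-0.88 ± 0.25, edgeR adjusted p = 0.155). Ifng, the cytokine itself, had 3.15, 2.49 and 4.42 CPM on the high fat diet, against 9.69, 3.79 and 21.6 CPM on the normal diet (-1.79 ± 0.63, edgeR adjusted p = 0.207). The Ifng groups overlapped, and its highest library, normal diet replicate 3, was also the highest for the summed T and NK cell markers (185 CPM). The part of those cells was not tested. The receptor genes Ifngr1 and Ifngr2 were at -0.06 ± 0.12 and 0.00 ± 0.08.

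Of 14 genes of class I peptide loading and trimming, 11 were negative. In edgeR, 6 reached an unadjusted p under 0.05 as lower (8.4% of all genes), and DESeq2 called 5 lower (3.24% of all genes). Tapbpl, a tapasin relative that edits peptides on class I molecules, had 38.1, 35.7 and 38.6 CPM on the high fat diet, against 60.3, 47.5 and 57.1 CPM on the normal diet (-0.55 ± 0.10, edgeR adjusted p = 0.0676). Tap2, a chain of the peptide transporter, had 49.9, 48.9 and 48.9 CPM on the high fat diet, against 85.1, 61.5 and 87.9 CPM on the normal diet (-0.67 ± 0.14, edgeR adjusted p = 0.0822). Neither gene's groups overlapped, and normal diet replicate 2 was again the lowest of its group. H2-D1, a class I heavy chain, had 3179.6, 3173 and 3050.3 CPM on the high fat diet, against 4185, 3731 and 4094 CPM on the normal diet (-0.35 ± 0.11, edgeR adjusted p = 0.160). Reads of H2 genes can be shared with near-identical relatives, so that level is uncertain.

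Tap1, the other transporter chain, is named for the promoter window it shares with Psmb9. It had 144, 137 and 145 CPM on the high fat diet, against 272, 150.3 and 299 CPM on the normal diet (-0.76 ± 0.25, edgeR adjusted p = 0.184). As for Psmb9, the groups did not overlap and normal diet replicate 2 lay just above the high fat libraries. The aminopeptidases and peptidases that trim or destroy peptides lay near 0, with log2 fold changes of 0.06 to 0.14 for Npepps, Lap3 and Thop1 and of -0.08 ± 0.07 for Erap1.

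Of the ubiquitin genes and activating enzymes, 4 are given here. Ubb, a polyubiquitin gene, had 471, 523 and 494 CPM on the high fat diet, against 652, 675 and 623 CPM on the normal diet (-0.39 ± 0.08, edgeR adjusted p = 0.0903; DESeq2 adjusted p = 0.000602). Its groups were apart, and normal diet replicate 2 was its highest library. Rps27a, a fusion of ubiquitin with a ribosomal protein, was at 0.02 ± 0.13. The activating enzyme Uba1 was at 0.07 ± 0.08. Uba6, the other activating enzyme, had 25.1, 27.7 and 26.4 CPM on the high fat diet, against 29.6, 25.9 and 28.2 CPM on the normal diet (-0.08 ± 0.09, edgeR adjusted p = 0.685), and its groups overlapped.

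NRF1 (Nfe2l1) raises constitutive subunit genes when proteasome activity falls short. Among the 7 genes of its list, which also hold NRF2 (Nfe2l2) and targets, 2 reached an unadjusted p under 0.05 in edgeR, both higher on the high fat diet (10.2% of all genes did so). Nqo1, a quinone reductase, had 2.14, 1.59 and 1.60 CPM on the high fat diet, against 0.605, 1.05 and 0.746 CPM on the normal diet (1.15 ± 0.33, edgeR adjusted p = 0.144). Gclm, a subunit of the enzyme that starts glutathione synthesis, had 94.9, 80.6 and 86.9 CPM on the high fat diet, against 69.6, 80.7 and 56.3 CPM on the normal diet (0.35 ± 0.14, edgeR adjusted p = 0.247). Nqo1 was scarcely expressed and its groups did not overlap, while those of Gclm did. Nfe2l2 had 267, 268 and 305 CPM on the high fat diet, against 336, 279 and 323 CPM on the normal diet (-0.16 ± 0.10, edgeR adjusted p = 0.459), with overlap. Nfe2l1 was at -0.03 ± 0.10, and the median of the list was 0.08.

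Of 6 assembly chaperones, 5 were in the table (Paaf1 was not analysed here), and 4 of them had a negative log2 fold change. Psmg4, which helps build the alpha ring, had 13, 14.2 and 12.6 CPM on the high fat diet, against 16.9, 15.6 and 17.3 CPM on the normal diet (-0.33 ± 0.11, edgeR adjusted p = 0.183). It was the single gene of the list with an unadjusted p under 0.05 in edgeR (18.6% of all genes tested). Pomp, the maturation factor of new 20S cores, had 89.6, 91.7 and 91.8 CPM on the high fat diet, against 93.7, 96 and 103 CPM on the normal diet (-0.10 ± 0.07, edgeR adjusted p = 0.474), without overlap. Psmg3, another alpha ring chaperone, had 2.10, 1.25 and 1.56 CPM on the high fat diet, against 1.56, 1.53 and 1.54 CPM on the normal diet (0.08 ± 0.29, edgeR adjusted p = 0.903). Psmg3 turned negative without high fat replicate 1, and none of the 5 was called by DESeq2 (8.34% of all genes tested were).

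Among 20 proteins that bind the proteasome or bring it substrates, 11 had a negative log2 fold change, with a median of -0.01. Of the 20, 1 reached an unadjusted p under 0.05 in edgeR, where 18.6% of all genes tested reached it. Txnl1, a thioredoxin-like protein of the 19S particle, had 64.2, 66 and 65.5 CPM on the high fat diet, against 83.2, 70.3 and 78.7 CPM on the normal diet (-0.25 ± 0.08, edgeR adjusted p = 0.177). Its groups did not overlap, and edgeR called it without normal diet replicate 2, a fit that called 9.44% of all genes tested, 5.9% as lower. Zfand5, a zinc finger activator of the 26S proteasome, had 274, 266 and 380 CPM on the high fat diet, against 418, 341 and 384 CPM on the normal diet (-0.31 ± 0.16, edgeR adjusted p = 0.346), with overlap. Vcp, the segregase that extracts ubiquitin-tagged proteins, had 268, 291 and 275 CPM on the high fat diet, against 260, 253 and 233 CPM on the normal diet (0.16 ± 0.08, edgeR adjusted p = 0.334), without overlap. The list showed no common direction, and DESeq2 called none of its genes (8.34% of all genes tested were called).

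**Figure D5:**
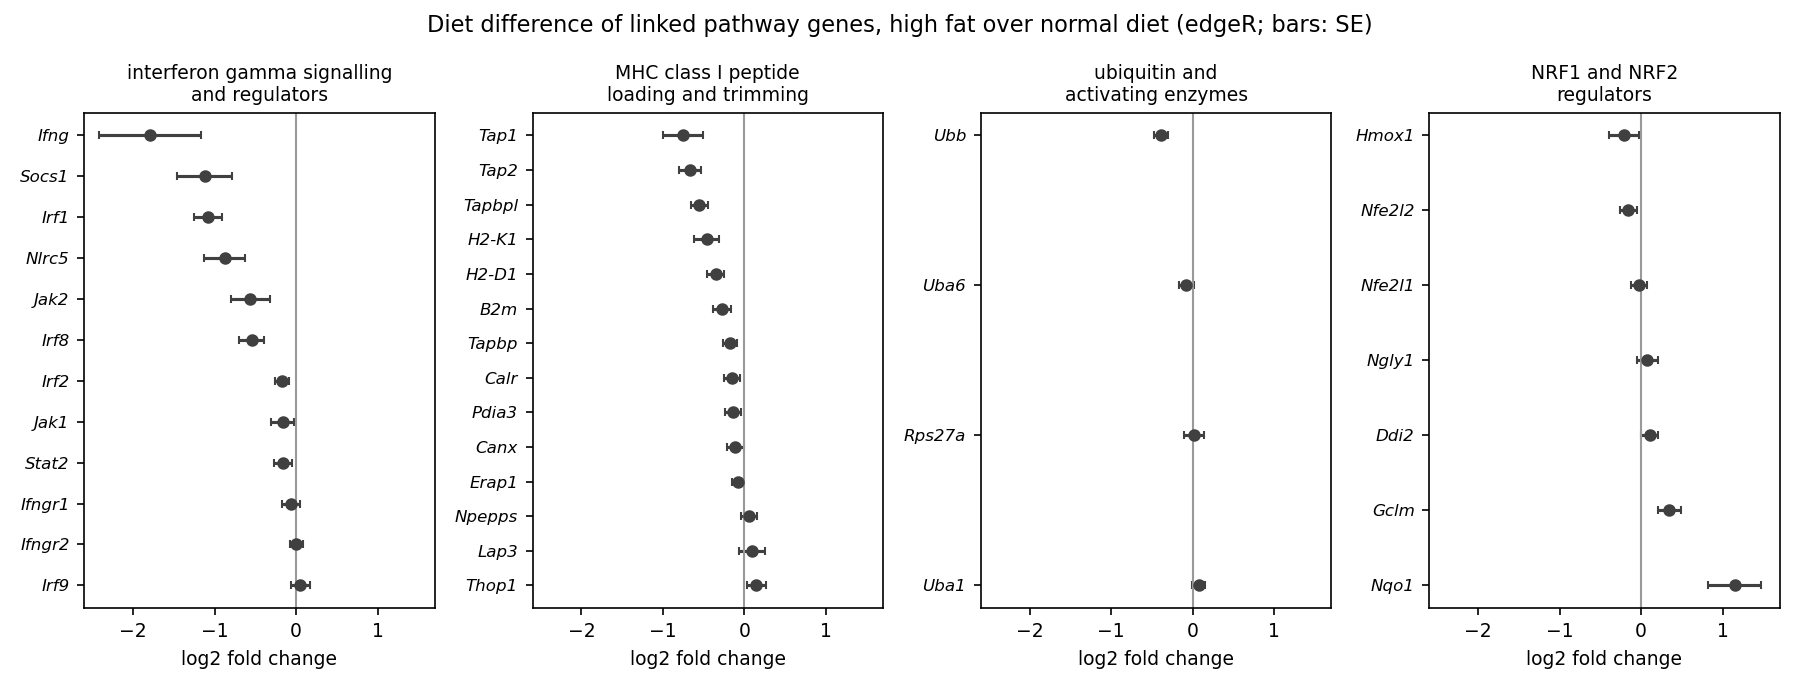
Log2 fold change, high fat over normal diet, with its SE (edgeR) for the reported genes of 4 linked lists. Most genes of the interferon gamma and peptide loading lists lie below 0, down to -1.79 for Ifng and -0.76 for Tap1, while the ubiquitin and NRF lists lie on both sides.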

How the data were processed

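The submitters deposited 1 table for 6 libraries of poly(A)-selected RNA, 3 per diet. The tools named in the submitters' processing notes are featureCounts for counting, the aligners STAR and HISAT2, StringTie, STAR-Fusion, DESeq and edgeR, with mm10 as the build; the sources used here give no versions, settings or handling of multi-mapping reads. The authors deposited raw read counts, which entered every test. The authors also deposited FPKM (used for levels between genes), and a comparison with log2 fold changes and p-values. Libraries were grouped by their treatment label.

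Diets were compared with edgeR 4.0.16 in R 4.3.3: TMM scaling, the default low-count filter (14361 of 14918 genes left), a robust quasi-likelihood test, and Benjamini-Hochberg adjustment over all genes with a threshold of 0.05. The biological coefficient of variation common to all genes was 20.9%. Each SE is the log2 fold change over the root of its F statistic. Alternatives were scaling by median ratio, by upper quartile or by total count, no filter, 5 CPM in 3 libraries, DESeq2 1.42.0, limma 3.58.1 voom, no robust prior, the hepatocyte score as a covariate, each library left out, and both libraries at the ends of that score left out. Pair ratios had 0.5 added to counts and an exact two-sided permutation test (scipy 1.17.1). Code was tested on simulated counts with less spread than the 20.9% here and larger fold changes than those of the 5 inducible genes. That test checks the code and not the power to find changes of their size. The members and lists were chosen with earlier results of these data known. Named in every library were the 5 inducible genes, their counterparts, Psma8, the 3 highest and 3 lowest of the other members by log2 fold change, and each pathway list's 3 genes of smallest p; exceptions are marked, and a few genes of the pathway lists are not reported here. List symbols were matched by Ensembl identifier. Of the 44 genes, 14 share exon bases with another gene, 12 of them on the opposite strand, and 4 pseudogenes are named after members, so reads there are uncertain.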

Additional observations from a re-analysis of the deposited data

How the results depend on the processing

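The number of genes that passed over the whole table was 91 in edgeR. It was 1198 with DESeq2, 0 with the hepatocyte score as a covariate (1093 at an unadjusted p under 0.05), 0 without both libraries at the ends of that score (1384 unadjusted), and 0 to 1385 with each library left out in turn, the highest without normal diet replicate 2. The inducible genes called numbered 0 in edgeR, 4 with DESeq2 and 0 to 5 with each library left out (5 without normal diet replicate 2). Genes called with each library left out were 0 to 1 of the associated proteins, 0 to 1 of the ubiquitin genes, 0 to 7 of the interferon gamma genes and 0 to 4 of the peptide loading genes. Each was highest without normal diet replicate 2, where 9.44% of all genes tested were called, 5.9% as lower. DESeq2 called 2 ubiquitin genes, 6 interferon gamma genes and 5 peptide loading genes, all lower on the high fat diet (3.24% of all genes tested). Upper-quartile scaling and no low-count filter each called 1 interferon gamma gene, Irf1, in fits that called 108 and 104 genes in the whole table. The log2 fold changes of the 5 inducible genes were negative in every setting run. Their median moved between -0.36 with the covariate and -0.69 without normal diet replicate 2. Signs turned for genes near 0: Psme3 was at 0.0053 with total-count scaling, 0.055 with the covariate and 0.0047 without both end libraries; Psmg3 was at -0.063 with the covariate, -0.15 (without high fat diet replicate 1) to 0.24 with each library left out and -0.14 without both; Uba6 was at 0.044 with the covariate. The cause of these changes was not tested. Of the 38 other proteasome genes, 8 changed sign with the covariate and 6 without normal diet replicate 2, and 0 were called in any setting run. No paired analysis was possible because the replicate numbers were given in accession order and pair no mice across the diets. With 3 mice per diet and a biological coefficient of variation of 20.9% common to all genes, the spread between mice limits the comparison. None of the 38 other genes passed, and their log2 fold changes in edgeR were small (median 0.04, range -0.28 to 0.19).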
